A study of Oryza sativa with 6 samples.

Results

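Heat shock proteins and the factors that switch them on were followed in rice caryopses, the developing grains, of 2 genotypes that differ in grain filling. Members were all genes whose symbol or synonym in the RefSeq gene table reads HSP with a number, HSF with a class letter or number, or CLPB1, provided that a probe set of the array is assigned to that gene alone. This gave 43 genes out of 17905 with such a probe set: 19 small HSPs, 3 HSP90 genes, 1 HSP100 gene and 20 heat shock factors. The gene table held 49 genes under these names, so 6 had no such probe set: 3 small HSPs and 3 factors. No HSP70 gene (0) carries a matching name, so HSP70 was not described. A gene with more than 1 probe set is represented by the one with the highest mean signal.

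Small HSPs are chaperones that hold unfolding proteins in a soluble state and need no ATP. HSP90 folds signalling proteins with ATP, and HSP100 of the ClpB type pulls proteins out of aggregates. Heat shock factors bind the promoters of these genes. Class A factors of plants activate transcription, many class B factors act as repressors, and class C is a further plant group. In cereal grains many of these genes are also expressed in the course of normal development, without heat.

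Caryopses were taken 7 days after flowering from the japonica cultivar Zhonghua11 (wild type) and from the mutant gif1. Each genotype gave 3 single-colour oligonucleotide arrays, called biological repeats in the labels, and no treatment was named for either. GIF1 (GRAIN INCOMPLETE FILLING 1) encodes a cell-wall invertase, an enzyme that cleaves sucrose outside the cell. The labels give neither the lesion of the mutant nor how many plants went into an extract. Whole caryopses hold endosperm, embryo and maternal pericarp, so fewer cells of a type and less RNA per cell cannot be told apart in these values.

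All values are signals on a linear scale, as deposited. Differences are given as the gif1 mean less the wild-type mean of log2(signal + 17.7), with n = 3 arrays in each group. A gene is said to have risen or fallen when limma's adjusted p over all 28597 tested probe sets was under 0.05, and then it is called higher or lower. Levels of different genes are not compared, since each probe set has its own response.

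The GIF1 probe set read 654.2, 428.6 and 607.7 in wild type against 173.3, 100.9 and 190.4 in gif1, so the groups did not overlap (log2 difference -1.77, SE 0.28, limma adjusted p = 0.00254). Markers of the labelled tissue gave signal on every array. The 6 starchy endosperm markers (GluA-1, GluD-1, RAG1, RAG2, Wx and SWEET11) summed to signals of 356975 to 477110 in wild type and 255624 to 284612 in gif1, and 5 of the 6 fell. The 5 green pericarp markers (RBCS, RCA, PSAH, PETE and CAB2R) summed to 74776 to 79974 in wild type and 93789 to 114891 in gif1, and 4 rose. The 6 aleurone and embryo markers (RAB16A, rab25, Emp1, VP1, LEA19 and OSH1) summed to 105484 to 164999 in wild type and 48993 to 51209 in gif1, and 3 fell while 1 rose. The lowest single signal of a marker on any array was 10143.8 for starchy endosperm, 1055.5 for green pericarp and 345.6 for aleurone and embryo. The poly-A control RNAs were lower on all gif1 arrays (log2 difference -2.24), and so were the hybridization controls (-0.51) and the median signal (-0.41). The ribosomal RNA probe sets were lower as well (-1.06), and so was the second of the actin 3′ to 5′ ratios (-0.54; 9.37 to 14.7 in wild type, 6.91 to 8.21 in gif1). The first actin ratio and those of GAPDH and cyclophilin overlapped between the groups. The part of these shifts in the differences below was not tested.

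Of the 43 members 37 were bright enough to be tested, their signal averaging 74.1 or more. Of these, 4 rose and 6 fell in gif1, or 27.0% of the 37, where 12.0% of all tested probe sets and 13.6% of genes taken with 1 probe set each were called. The risers were the small HSPs HSP17.4, HSP17.9B and HSP18.0 and the HSP90 gene HSP81-1. The genes that fell were the factors HSFC1B, HSFB2C and HSFA6B, the HSP100 gene CLPB1, the HSP90 gene HSP81-3 and the small HSP HSP16.9A. By direction, 5.98% of probe sets and 7.92% of genes were higher and 6.0% and 5.63% lower. Groups did not overlap for 20 of the 37, 9 with gif1 higher and 11 with gif1 lower. Over all tested probe sets 33.4% had no overlap, 15.1% with gif1 higher and 18.3% with gif1 lower. The median log2 difference of the 37 was -0.11, beside -0.06 over all tested probe sets and 0.03 over genes. By class it was -0.03 for 15 small HSPs, -0.39 for the 4 HSP90 and HSP100 genes and -0.13 for 18 factors.

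**Figure D1:**
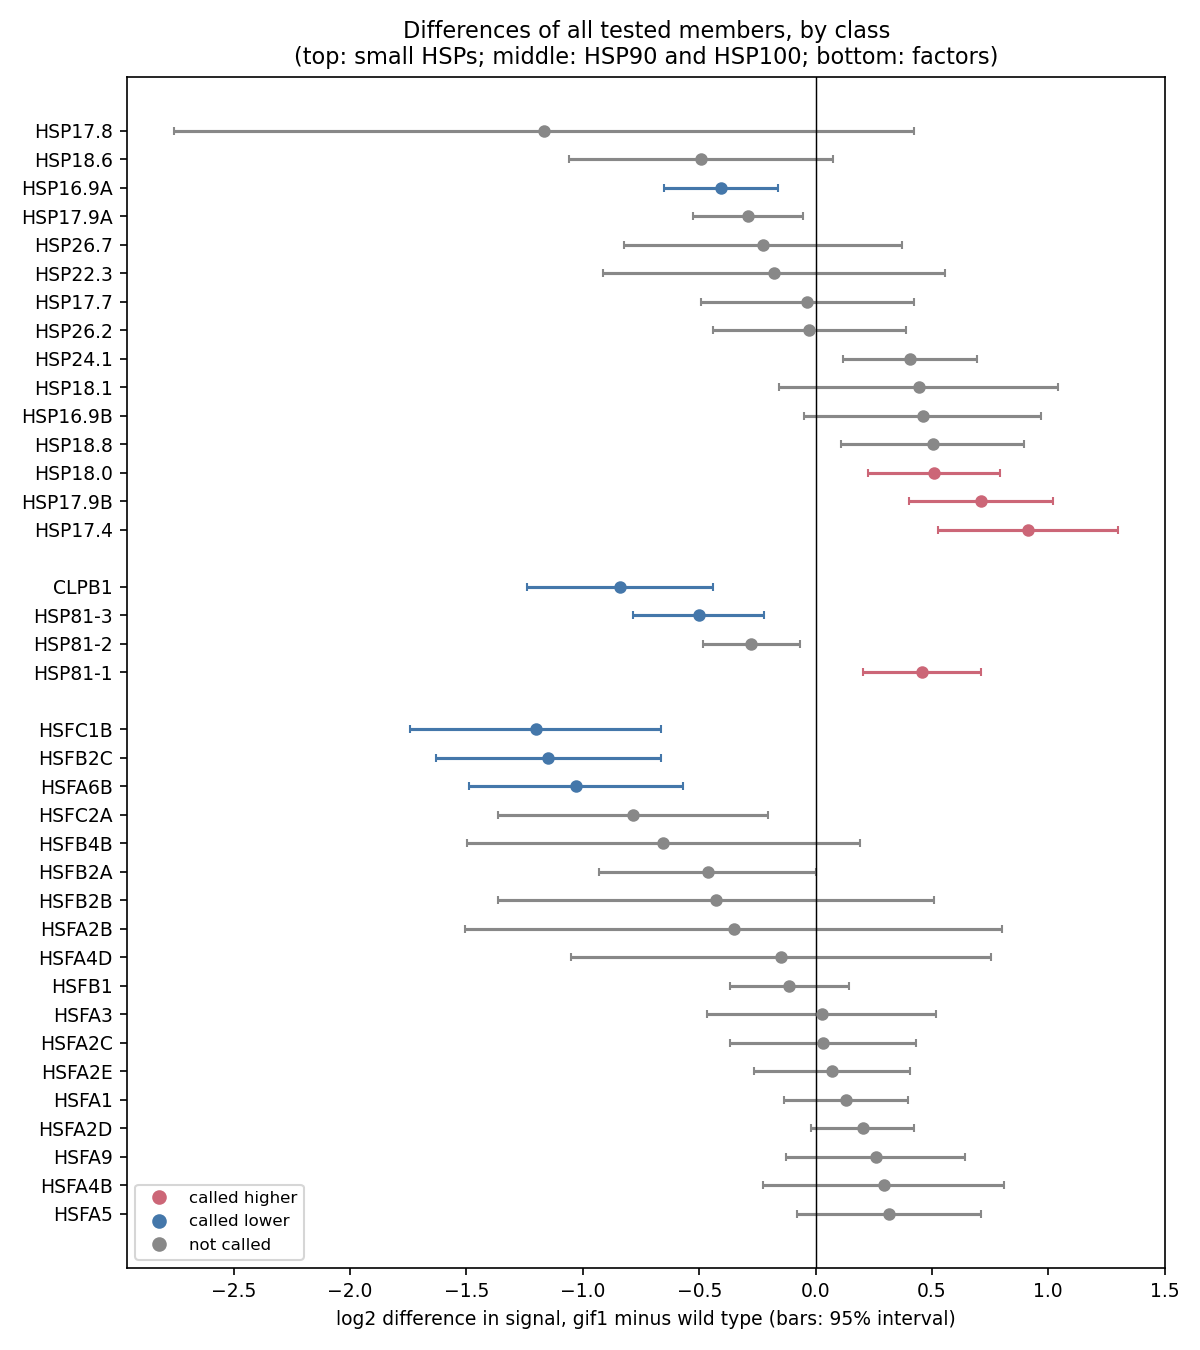
Log2 difference in signal, gif1 minus wild type, of the 37 tested members (points, with 95% intervals from limma), ordered by size within small HSPs (top), HSP90 and HSP100 (middle) and factors (bottom). Small HSPs lie on both sides of 0, from -1.17 to 0.91, whereas the called factors all lie at or below -1.03.

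The split of members into risers and fallers moved with the array scaling. When arrays were centred on the median over all probe sets, a choice made after seeing the data, 12 members were called higher and 3 lower. In that scaling 22.5% of probe sets were called, 20.3% higher and 2.14% lower. With arrays scaled to the hybridization controls 14 members were higher and 2 lower, where 35.9% of probe sets were called, 34.2% higher and 1.67% lower. The median of all tested probe sets stood at 0.28 and 0.43 in these scalings, and each difference should be read against it. No member was called by limma (0, with 12 at an unadjusted p under 0.05) once the variance model had no intensity trend, while 2.74% of probe sets were, 1.29% higher and 1.45% lower.

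Among small HSPs, 3 rose, 1 fell and 11 of the 15 tested did not pass, where 5.98% of all tested probe sets were higher and 6.0% lower. HSP17.4 (LOC4332360), a cytosolic class I small HSP, read 502.7, 531.6 and 518.3 in wild type against 930.3, 847.2 and 1232.2 in gif1. The wild-type arrays lay close together and every gif1 array was above them. HSP17.4 thus went from 518 ± 14.5 to 1003 ± 203 (SD, n = 3; log2 difference 0.91, SE 0.18, limma adjusted p = 0.00798). It kept its call with each single array left out (0.76 to 1.02).

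HSP17.9B (LOC4325695) read 3690.8, 3023.7 and 4484.9 in wild type against 6167, 5763.3 and 6185.5 in gif1. The lowest gif1 array stood above the highest wild-type array, and the spread was wider in wild type. HSP17.9B differed by 0.71 (SE 0.14, limma adjusted p = 0.00927) and passed without any single array (0.57 to 0.85).

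The rise of HSP18.0 (LOC4325342) rests on 1 of its 3 tested probe sets. That probe set read 3388.5, 3393.2 and 3872.8 in wild type against 4969.9, 4426.2 and 5860.6 in gif1 (0.51, SE 0.13, limma adjusted p = 0.0271), with no overlap. The other probe sets of HSP18.0 lay at -0.28 (SE 0.15, adjusted p = 0.234) and -0.43 (SE 0.32, adjusted p = 0.412), and the mean of all 3 stood at -0.07. Leaving out wild-type replicate 2 (adjusted p = 0.0760), gif1 replicate 1 (0.0837) or gif1 replicate 3 (0.127) ended the call of HSP18.0.

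HSP16.9A (LOC4325697), another class I protein, was the only small HSP called lower, with the highest adjusted p of the 10 calls. It read 19144.8, 20083.5 and 24244.5 in wild type against 16793.2, 15521 and 15308 in gif1, with every gif1 array below every wild-type array. The difference of HSP16.9A was -0.41 (SE 0.11, limma adjusted p = 0.0364). It lost its call with any array but wild-type replicate 1 left out (adjusted p up to 0.130), without the filter on dim probe sets (0.106) and with median centring over the tested probe sets (0.0541). With arrays scaled to the hybridization controls it turned to 0.10, where the median of all tested probe sets was 0.43.

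Small HSPs just short of a call lay on both sides. HSP24.1, a mitochondrial small HSP, read 2155.7, 1694.7 and 2077.8 in wild type against 2656.1, 2526.1 and 2648.5 in gif1 (0.41, SE 0.13, limma adjusted p = 0.0662), without overlap. HSP18.8 read 1262.9, 1499.8 and 1724.2 in wild type against 2736.3, 1920.2 and 1787 in gif1 (0.50, SE 0.18, limma adjusted p = 0.0919). All gif1 arrays of HSP18.8 were above those of wild type, gif1 replicate 3 by a small margin. HSP17.9A, of class I, read 13785.9, 15184.1 and 16917.8 in wild type against 12672.4, 13041.3 and 11711.8 in gif1 (-0.29, SE 0.11, limma adjusted p = 0.105), again without overlap.

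The largest difference of a small HSP that did not pass was that of HSP17.8, at -1.17 with an SE of 0.73 (limma adjusted p = 0.321). It read 140.8, 183.9 and 46.7 in wild type against 2.5, 102 and 57.5 in gif1, so the groups overlapped. HSP17.8 was the only tested member (1) with a mean under the 74.1 minimum in just 1 of the groups. HSP18.6 read 1993.3, 1678.5 and 3973.6 in wild type against 1911.1, 1454.7 and 1698.6 in gif1 (-0.49, SE 0.26, limma adjusted p = 0.238), and wild-type replicate 3 stood apart there. Of the other organelle forms, HSP26.7 of chloroplasts stood at -0.23 (95% interval -0.82 to 0.37) and HSP26.2 of mitochondria at -0.03 (-0.44 to 0.39). The remaining small HSPs tested, HSP16.9B, HSP18.1, HSP17.7 and HSP22.3, had overlapping groups and differences of 0.46, 0.44, -0.04 and -0.18. The other tested probe set of HSP18.1 lay at -0.31 (SE 0.28).

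Many small HSP genes of rice lie in runs along a chromosome, and genes of 1 run were called in opposite directions. In the RefSeq gene table of assembly ASM3414082v1, HSP16.6, HSP17.9B, HSP16.9C, HSP16.9A and HSP16.9B follow each other on chromosome 1 with no other protein-coding gene between. Of these HSP17.9B rose, HSP16.9A fell and HSP16.9B did not pass, while HSP16.6 was too dim to test and HSP16.9C had no probe set of its own. The fall of HSP16.9A, the call with the highest adjusted p, was lost with most single arrays left out. Its difference was 0.10 with scaling to the hybridization controls, where the median of all tested probe sets was 0.43. The RefSeq entry of HSP16.9A also carries the name HSP16.9B, and probe sets of such close copies may share transcripts.

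On chromosome 3, HSP17.4, HSP18.1 and HSP17.7 are direct neighbours, and HSP17.9A lies a few genes before them. There HSP17.4 rose and the others did not pass. The log2 ratio of 2 genes within an array does not change when all its signals are multiplied by 1 factor. It can change with quantile normalization. The ratio was compared for 3 pairs chosen after their values were seen. HSP17.9B over HSP16.9A ranged from -2.73 to -2.37 in wild type and from -1.45 to -1.31 in gif1, a shift of 1.12. HSP17.4 over HSP17.9A ranged from -5.03 to -4.78 in wild type and from -3.94 to -3.25 in gif1, a shift of 1.23. Each pair set a gene higher on every gif1 array over a gene lower on every gif1 array. The ranges of a ratio could therefore not overlap, and the outcome of a test was fixed by the choice of pairs. For each pair the two-sided exact permutation p was thus 0.1, the smallest that 3 against 3 arrays allow. It was also 0.1 after adjustment over 3 pairs. These p-values add no support to the single-gene differences.

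**Figure D2:**
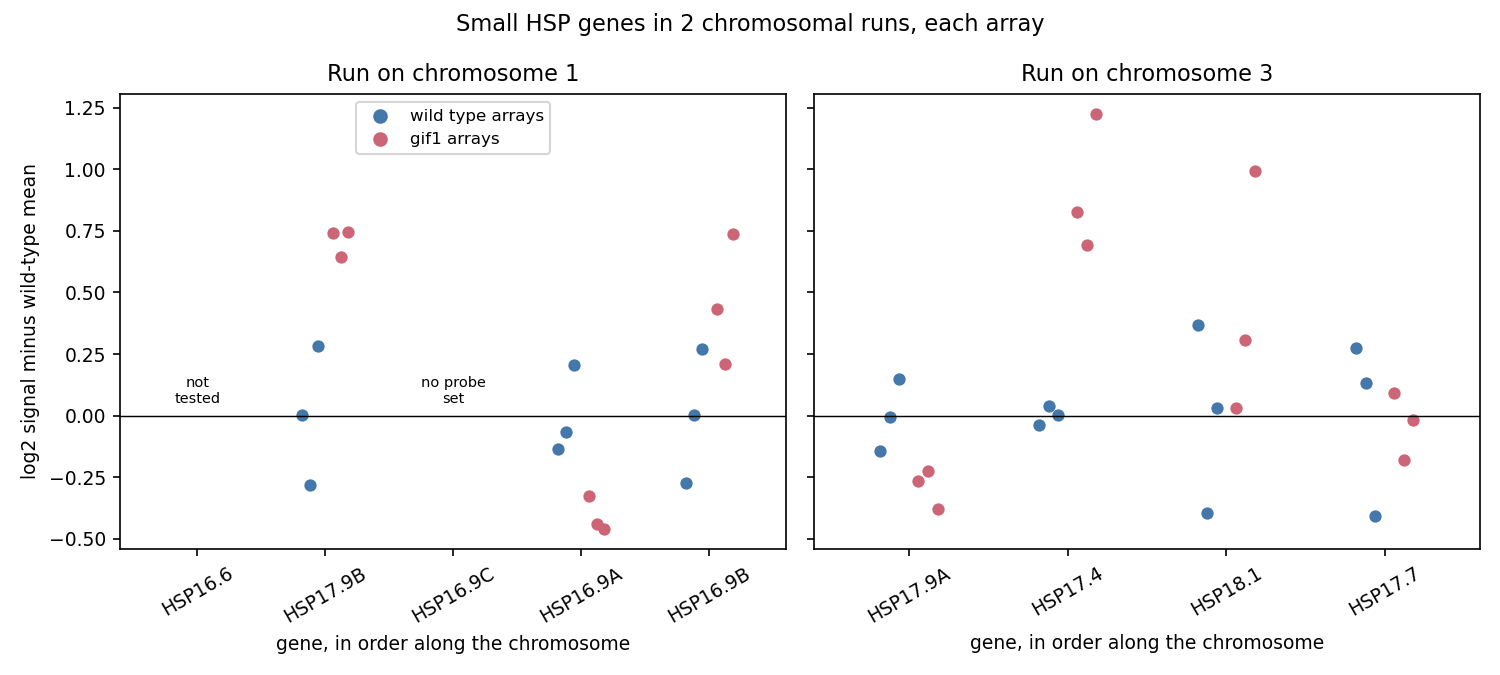
Log2 signal of each array minus the wild-type mean of that gene, for small HSP genes in their order along 2 chromosomal runs, with wild-type arrays in blue and gif1 arrays in red. HSP17.9B and HSP17.4 have all gif1 arrays above wild type, and HSP16.9A and HSP17.9A have all of them below.

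Of the HSP90 and HSP100 genes, 1 rose, 2 fell and 1 did not pass. None of the 4 had overlapping groups in its brightest probe set. Over all tested probe sets 12.0% were called and 33.4% had no overlap. CLPB1 (LOC4339343), the HSP101 disaggregase, read 802.1, 828.8 and 949 in wild type against 531, 518.7 and 380.8 in gif1. All gif1 arrays lay well below wild type, gif1 replicate 3 lowest. CLPB1 went from 860 ± 78.3 to 477 ± 83.4 (SD, n = 3; log2 difference -0.84, SE 0.18, limma adjusted p = 0.0137). It missed the threshold without gif1 replicate 3 (-0.69, adjusted p = 0.0629), with median centring over all probe sets (-0.50, adjusted p = 0.102) and with scaling to the hybridization controls (-0.34, adjusted p = 0.201).

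HSP90 genes split. HSP81-1 (LOC4345951) read 8674.6, 7048.3 and 7266.7 in wild type against 11209.9, 9649.9 and 10639 in gif1, higher on every gif1 array (0.46, SE 0.12, limma adjusted p = 0.0266). Its second probe set stood at -0.23 (SE 0.22, adjusted p = 0.531) with overlapping groups, and the mean of both at 0.11. The call of HSP81-1 was lost with any array but wild-type replicate 1 left out (adjusted p up to 0.113) and without the filter on dim probe sets (0.0535).

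HSP81-3 (LOC4347405) read 97314, 75553.5 and 104878 in wild type against 58278.4, 65884.6 and 70675.5 in gif1 in its brightest probe set, with no overlap (-0.50, SE 0.13, limma adjusted p = 0.0280). Its 3 other tested probe sets did not pass. The pair of them with small errors lay at 0.01 (SE 0.09) and 0.09 (SE 0.09), and the third at -0.52 (SE 0.32). Groups overlapped for those at 0.01 and -0.52, while for the one at 0.09 every gif1 array lay above wild type. Quantile normalization took the brightest one to -0.03 (adjusted p = 0.882), scaling to the hybridization controls to 0.01 (0.977) and median centring over all probe sets to -0.17 (0.333). Without the filter the adjusted p was 0.147, and with any array but wild-type replicate 2 left out it was up to 0.119. The identifier of this probe set ends in _s_at, a form that can bind transcripts of related genes. The same caution holds for HSP18.6 and HSP26.2, given from _s_at probe sets, and for HSP18.8, HSP18.1 and HSFB4B, given from _x_at ones.

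HSP81-2 lies close to HSP81-3 on chromosome 9. It read 30525.5, 32411.5 and 29483 in wild type against 26932.4, 24920.3 and 24463.1 in gif1, lower on every gif1 array (-0.28, SE 0.09, limma adjusted p = 0.0815), without passing. The within-array log2 ratio of HSP81-1 over HSP81-3, the third pair compared, shifted by 0.96, from -3.85 to -3.42 in wild type to -2.77 to -2.38 in gif1 (two-sided exact permutation p = 0.1, the smallest possible). That p was fixed as well, since HSP81-1 was higher and HSP81-3 lower on every gif1 array. The ratio uses the brightest probe set of each gene and is open to the disagreement between their probe sets. Quantile normalization, which took HSP81-3 to -0.03 and HSP81-1 to 0.42, also changes this ratio.

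**Figure D3:**
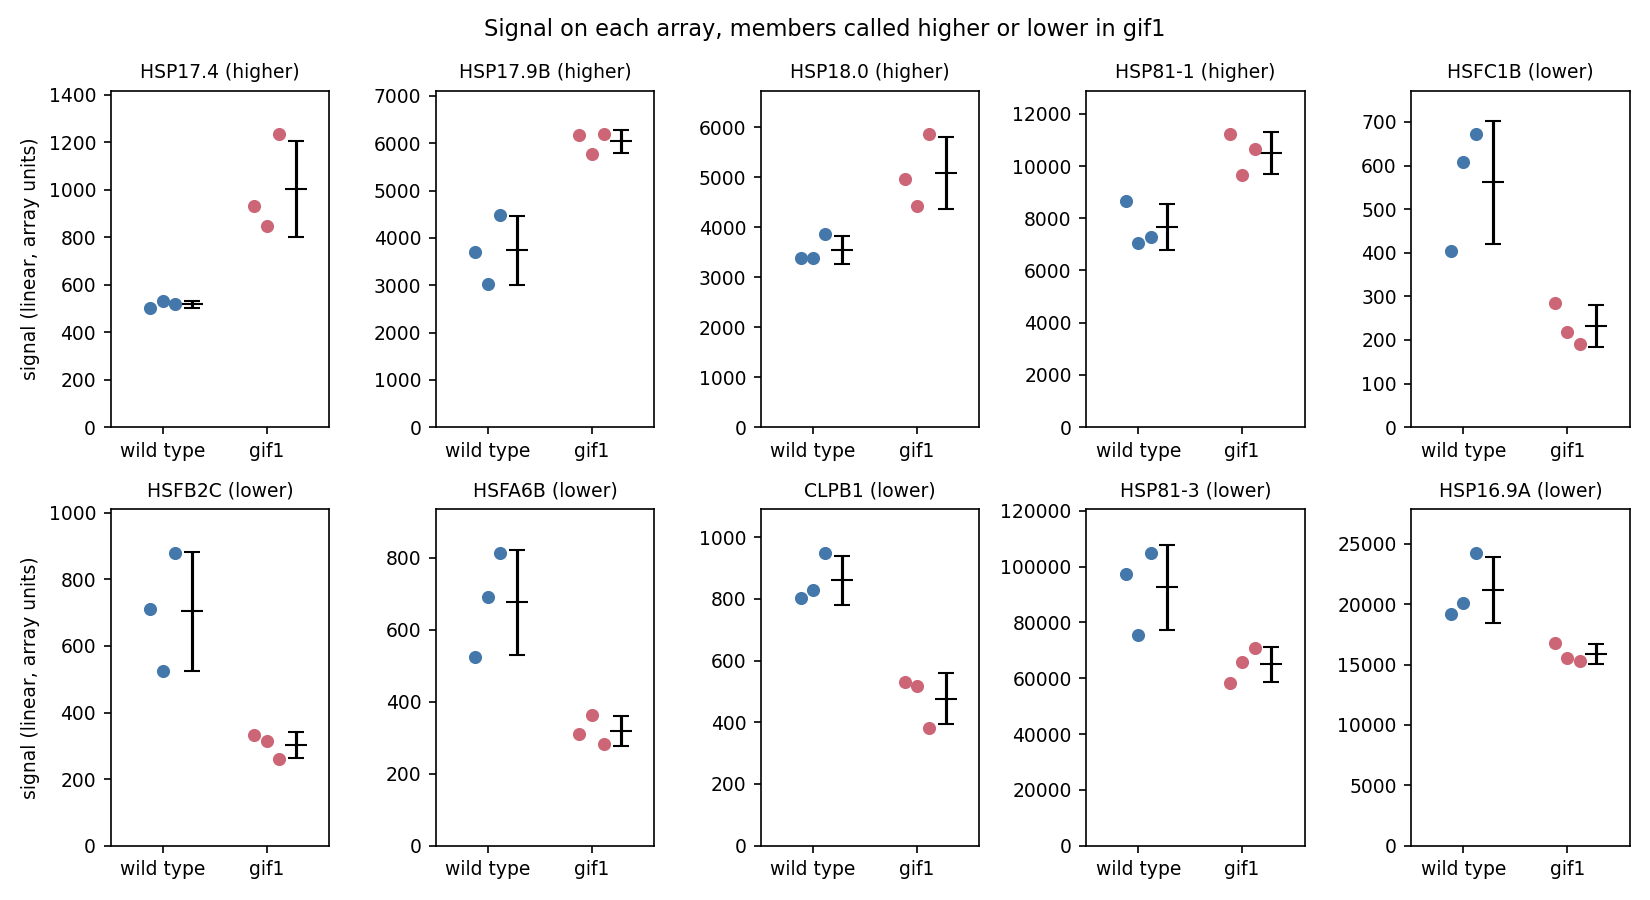
Signal on each array (linear scale, from 0) of the 10 called members, with wild type in blue, gif1 in red and the mean ± SD of 3 arrays beside the points. The 4 risers come first and the 6 that fell follow, and in no panel do the groups overlap.

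Heat shock factors fell or did not pass. Of 18 tested, 3 fell, none rose (0, also at an unadjusted p under 0.05) and 15 did not pass. Over all tested probe sets 6.0% were lower and 5.98% higher, a share at which few of 18 genes would rise. Median centring over all probe sets called 4 factors higher, where 20.3% of all tested probe sets were. Scaling to the hybridization controls called 6 higher, where 34.2% were. Both counts are near those shares. HSFC1B (LOC4324158) of class C read 403.1, 608.9 and 671.3 in wild type against 284.8, 218.1 and 191.5 in gif1. Each gif1 array was below each wild-type array, and wild type spread more. HSFC1B went from 561 ± 140.3 to 231 ± 48.1 (SD, n = 3), a log2 difference of -1.20 (SE 0.25, limma adjusted p = 0.0106). It stayed called without any single array (-1.42 to -1.06) and in all 4 other scalings tried, the last of these, scaling to the hybridization controls, at -0.72.

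HSFB2C (LOC4347637) of class B read 710.3, 523.5 and 879.7 in wild type against 333.5, 315.4 and 259.5 in gif1, again without overlap (-1.15, SE 0.22, limma adjusted p = 0.00780). Its 2 other tested probe sets pointed the same way without passing, at -0.58 (SE 0.35) and -0.15 (SE 0.39), and their mean with the first stood at -0.63 (adjusted p = 0.115). HSFA6B (LOC4326351) of class A read 524.3, 689.3 and 813.1 in wild type against 311.1, 362.3 and 282.5 in gif1. These groups did not overlap either (-1.03, SE 0.21, limma adjusted p = 0.0104). Scaling to the hybridization controls took HSFA6B to -0.54 and ended its call (limma adjusted p = 0.0672).

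Factor classes differed in how their members lay about 0. In the brightest probe set of each gene, all 5 tested class B factors and both tested class C factors had negative differences. This held as deposited, with quantile normalization and with median centring over the tested probe sets. Of 11 class A factors 8 were positive as deposited. Medians were 0.07 for class A, -0.46 for class B and -0.99 for class C. Scaling to the hybridization controls raised them to 0.57, 0.004 and -0.50, with 10 of 11 class A, 3 of 5 class B and 0 of 2 class C factors positive and 6 class A factors called higher. The order of the 3 medians was the same, while the sign of class B was not. The median of all tested probe sets stood at -0.06 as deposited and at 0.43 in that scaling, where 34.2% were called higher. The class B median lay below it in both. No test of a difference between classes was made.

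Among factors short of a call, HSFC2A read 513.9, 618.7 and 1179.3 in wild type against 386.7, 441 and 409.5 in gif1, lower on every gif1 array (-0.78, SE 0.27, limma adjusted p = 0.0779). Leaving out wild-type replicate 1 made HSFC2A pass (-1.02, adjusted p = 0.0189). Leaving out its highest array, wild-type replicate 3, took it to -0.44 (adjusted p = 0.211). HSFB4B read 161.4, 179.3 and 172.5 in wild type against 54.1, 126 and 149.2 in gif1, with no overlap but a wide spread in gif1 (-0.65, SE 0.39, limma adjusted p = 0.294). Further negative differences without a call were those of HSFB2A (-0.46, SE 0.21), HSFB2B (-0.43, SE 0.43), HSFA2B (-0.35, SE 0.53) and HSFA4D (-0.15, SE 0.41), the last known for the rice lesion mutant spotted leaf 7. All 4 had overlapping groups. The other tested probe set of HSFB2A lay at 0.16 (SE 0.33).

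HSFA1, whose relatives in Arabidopsis and tomato trigger the heat response, was close to even. It read 1668.5, 1640.7 and 1615.3 in wild type against 1842.8, 1819.4 and 1738.2 in gif1. All gif1 arrays were slightly higher, and the difference of 0.13 (SE 0.12, 95% interval -0.13 to 0.40, limma adjusted p = 0.515) did not pass. HSFB1 read 2073.2, 2206.1 and 2177 in wild type against 1968.4, 2012.9 and 1985 in gif1, slightly lower on all (-0.11, SE 0.12, limma adjusted p = 0.569).

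HSFA2D read 5038.4, 5177.1 and 5029.7 in wild type against 5815, 5734.2 and 6012.9 in gif1 in its brightest probe set, without overlap (0.20, SE 0.10, limma adjusted p = 0.214), and lay at -0.33 (SE 0.31) in its other one. The RefSeq entries of HSFA2D and HSFA2C also carry the names ARD2 and ARD1 of acireductone dioxygenases, enzymes of methionine salvage, so which transcript these probe sets read is uncertain. RefSeq lists HSFA2C as a transcribed pseudogene, and it stood at 0.03 (SE 0.18) in its brightest probe set and at -0.14 (SE 0.26) in its other. The remaining class A factors, HSFA5, HSFA4B, HSFA9, HSFA2E and HSFA3, differed by 0.32, 0.29, 0.26, 0.07 and 0.03 and none passed. HSFA9, whose relatives in Arabidopsis and sunflower act in seeds, read 593.8 to 616.2 in wild type against 588.5 to 811.3 in gif1.

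Members too dim to test were 4 small HSPs (HSP16.6, HSP23.2, HSP16.0 and HSP21.9) and 2 factors (HSFC1A and HSFA2A). Their signals ran from 4.6 to 156 over all 6 arrays, and the groups overlapped for each of the 6 genes. They include HSP16.0, a peroxisomal form, and HSFA2A, a relative of the factor that keeps the heat response going in tomato and Arabidopsis. With no detection call in the deposited values, a low signal does not show that the transcript was absent.

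Several members are read by more than 1 tested probe set, and these often disagreed. Of 9 such members 7 had differences of both signs among their probe sets. A call was made for 4 of the 9 (HSP81-1, HSP81-3, HSP18.0 and HSFB2C), and for none of them (0) by more than 1 probe set. Calls on genes with a single tested probe set, among them HSP17.4, HSP17.9B, HSFC1B, HSFA6B, CLPB1 and HSP16.9A, have no such comparison.

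**Figure D4:**
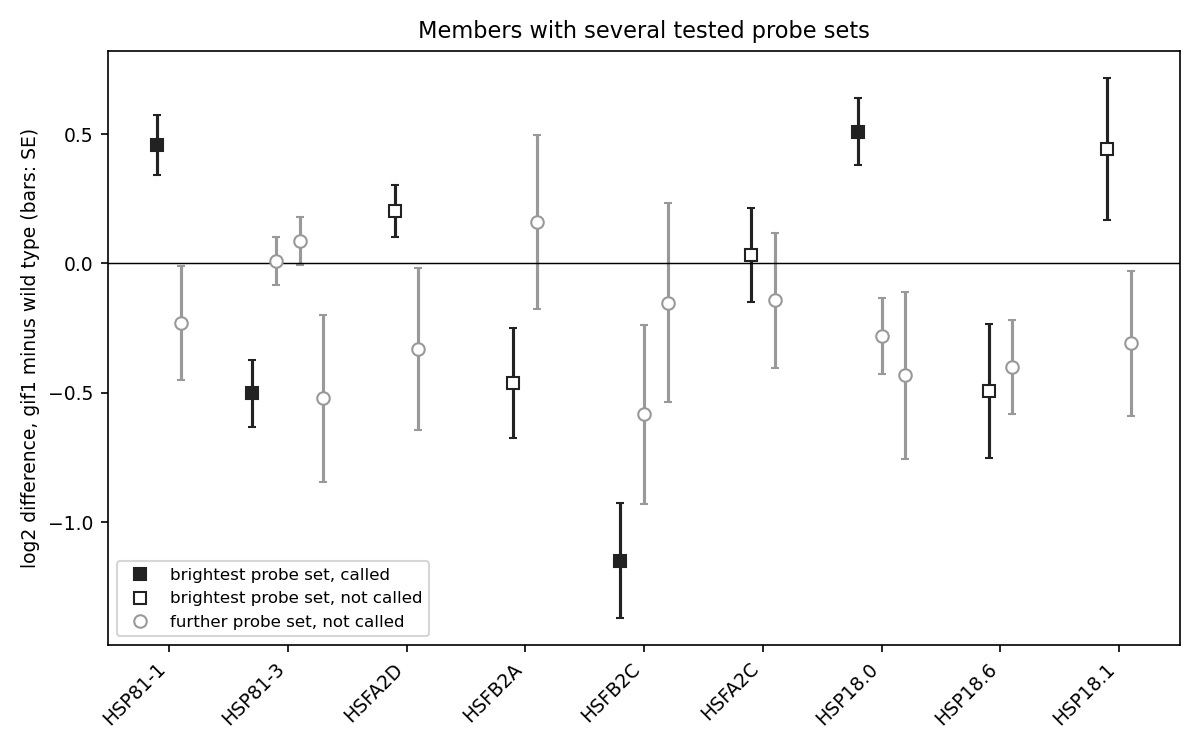
Log2 difference, gif1 minus wild type, with its SE for every tested probe set of the 9 members that have several; black squares mark the brightest probe set, grey circles the others, and filled symbols a call. Probe sets of HSP81-1, HSP81-3 and HSP18.0 lie on both sides of 0, and those of HSFB2C all lie below it.

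Calls of 6 members held in all 5 scalings: HSP17.4, HSP17.9B, HSP18.0, HSP81-1, HSFC1B and HSFB2C. For a rise this is weak support. With median centring over all probe sets and scaling to the hybridization controls, the median of all tested probe sets stood at 0.28 and 0.43. There 20.3% and 34.2% were called higher. HSP18.0 and HSP81-1 also lost their calls with some single arrays left out. HSP17.4 stood between 0.89 and 1.41 and HSP17.9B between 0.67 and 1.22 over the 5 scalings. HSFC1B stood between -1.20 and -0.72 and HSFB2C between -1.15 and -0.66. HSP81-3 and HSP16.9A reached positive values with scaling to the hybridization controls, at 0.01 and 0.10, both below the median of 0.43 there.

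**Figure D5:**
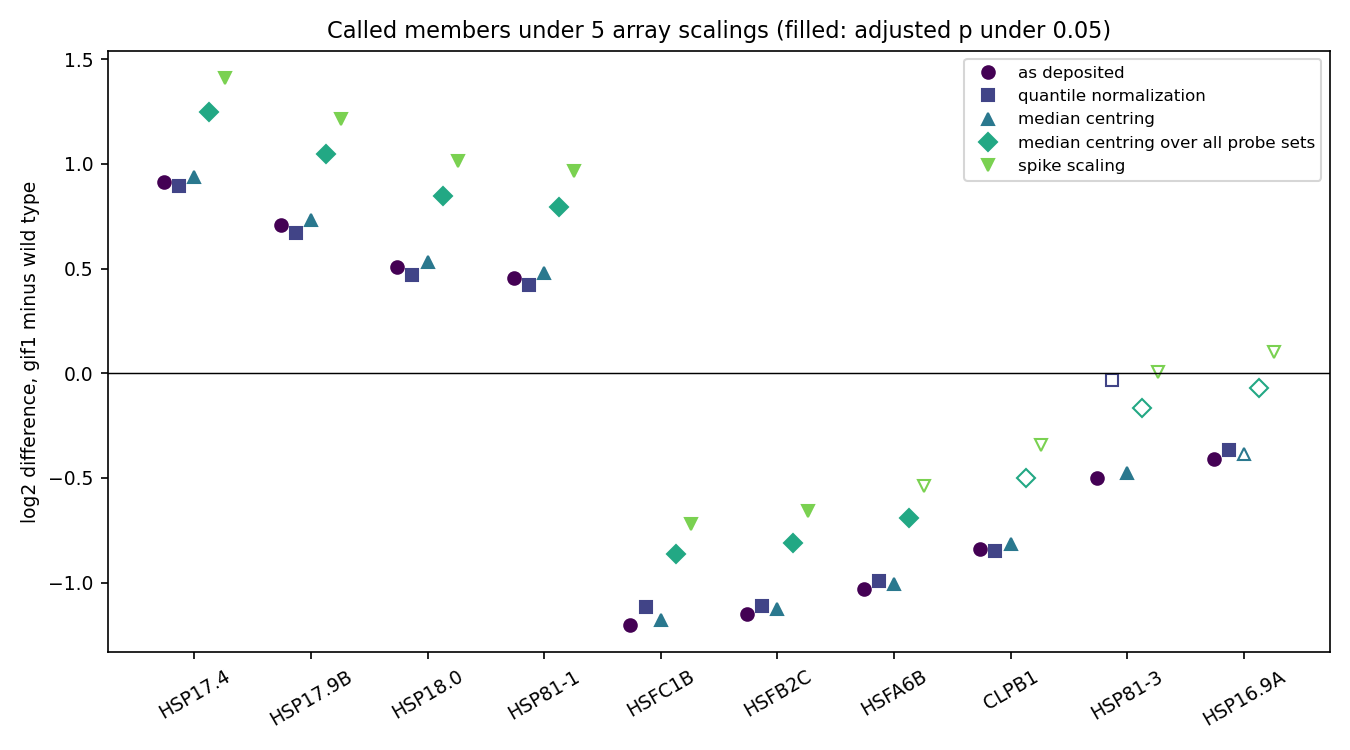
Log2 difference, gif1 minus wild type, of the 10 called members under 5 array scalings (symbols), filled where limma's adjusted p was under 0.05. HSP17.4, HSP17.9B, HSP18.0 and HSP81-1 stay above 0 and HSFC1B, HSFB2C, HSFA6B and CLPB1 below it, while HSP81-3 and HSP16.9A reach 0 or above. With scaling to the hybridization controls the median of all tested probe sets was 0.43.

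Other genes of protein folding and of the heat response were taken from a list by name: J-domain proteins, co-chaperones, BiP, other Clp ATPases, DREB2 factors and ascorbate peroxidases. Of 26 with a probe set 24 were tested; 5 rose, none fell (0, with 11 of the 24 at an unadjusted p under 0.05 in either direction) and 19 did not pass, where 5.98% of probe sets rose. The median difference was 0.17. CLPC1 read 6826.6, 6495.7 and 5915 in wild type against 9233.2, 8766.3 and 10522 in gif1 (0.57, SE 0.11, limma adjusted p = 0.00924), without overlap. Also risen were CLPC2 (0.62, SE 0.15), CLPB2 (0.45, SE 0.12), APX6 (0.55, SE 0.12) and APX8 (0.66, SE 0.17). ClpC is the ATPase of the plastid Clp protease, CLPB2 is the plastid counterpart of CLPB1, and APX8 is a peroxidase of plastids. On the same arrays 4 of the 5 green pericarp markers rose; their part in these rises was not tested.

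CLPB2 read 1904.4, 1712.7 and 1609.8 in wild type against 2328.4, 2406 and 2429.1 in gif1, higher on every gif1 array, where CLPB1 was lower on every one. The ER chaperone BiP (BIP1) read 29565.5, 22403.3 and 32329.2 in wild type against 25546.8, 24547.3 and 27568.3 in gif1 (-0.10, SE 0.13, limma adjusted p = 0.653), with overlap. DJA6, a J-domain partner of HSP70, stood at 0.05 (SE 0.10) and the peroxidase APX2 at 0.31 (SE 0.10, limma adjusted p = 0.0730). The largest negative differences of the list, those of DREB2D (-1.17, SE 0.36, limma adjusted p = 0.0553) and DREB2A (-1.12, SE 0.59, adjusted p = 0.237), did not pass; DREB2 factors act upstream of heat-responsive genes in Arabidopsis. Both were singled out after their values were seen. Calls of this list shifted with scaling too: 15 rose with scaling to the hybridization controls and 10 with median centring over all probe sets. In these scalings 34.2% and 20.3% of all tested probe sets rose. Without wild-type replicate 3 or gif1 replicate 2 the risers numbered 3, without gif1 replicate 1 they numbered 1, and without gif1 replicate 3 none was called by limma (0, with 9 at an unadjusted p under 0.05).

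Leaving out an array changed the number of calls among members and among all probe sets alike. Without wild-type replicate 3 limma called 3 members higher and 4 lower, while calls over all tested probe sets went from 3425 to 2298. Without wild-type replicate 2 the members numbered 2 and 5, with 2366 probe sets called. Without gif1 replicate 1 they were 2 and 4 with 1582 probe sets, and without gif1 replicate 3 they were 2 and 3 with 1436. Only HSP17.4, HSP17.9B, HSFC1B, HSFA6B and HSFB2C of the 10 kept their call with each of the 6 arrays left out in turn.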

How the data were processed

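The authors' deposited values are intensity signals, 1 per probe set and array, and per the submitters' processing notes GCOS 1.4 made them. Background correction and probe summary are not given in the sources used here. All arrays, as deposited, share a trimmed mean of about 500.1 after leaving out 2% at each end. Of 57381 probe sets 187 controls were left out, and 22436 have 1 gene in the platform annotation. All of these were found in the RefSeq gene table of ASM3414082v1, used for names and gene order only. Signals were taken as log2(signal + 17.7), with the 25th percentile as offset, and probe sets with a mean of at least 74.1, the median, were tested (28597).

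Groups were compared with limma 3.58.1 in R 4.3.3 (lmFit, eBayes with an intensity trend, genotype as the only term, Benjamini-Hochberg over all tested probe sets). Single ratios and technical measures used two-sided exact permutation tests. The fit was tested on simulated data. The number of arrays, 6, limits the precision. The p-values of limma set a group difference against the spread between arrays of a group, which eBayes moderates across probe sets. No column was left unmapped (0). Members and lists were chosen with earlier results of these data known. In the list of other folding genes, interactors of a brassinosteroid receptor kinase that share the letters BIP with the BiP chaperone were taken out. Named with all array values are members past 0.05, the 3 brightest of each class and the 2 largest others. HSP24.1 and HSP18.6 were added after their values were seen. Sequences were not used here.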

Additional observations from a re-analysis of the deposited data

How the results depend on the processing

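Alternatives were other offsets, filters, scalings, variance models, probe set summaries and single arrays left out. Median centring over all probe sets was chosen after seeing the data. Members called higher numbered 4, but 12 with median centring over all probe sets, 14 with scaling to the hybridization controls and 0 without the intensity trend; members called lower numbered 6, but 3, 2 and 0. Chaperone partners called higher went from 5 to 10, 15 and 0 in the same order, and 1 was called lower with the mean of all probe sets of a gene. Leaving out single arrays gave 2 to 5 members higher and 3 to 7 lower, and 0 to 6 partners higher and 0 lower. The small HSP median of -0.03 stood at 0.31 with median centring over all probe sets, 0.47 with scaling to the hybridization controls and 0.19 with a filter 2 times higher, which tests fewer members. The HSP90 and HSP100 median of -0.39 stood at -0.053, 0.12 and, with quantile normalization, -0.069. The factor median of -0.13 stood at 0.21, 0.34 and, with the higher filter, 0.029. With single arrays left out these medians ran from -0.002 to 0.10, from -0.44 to -0.36 and from -0.19 to 0.036. Median centring over all probe sets moves every difference by the same amount. Scaling to the hybridization controls multiplies all signals of an array by 1 factor. With these 2 scalings the median of all tested probe sets went from -0.06 to 0.28 and 0.43. The cause of the other moves was not tested, other than the fewer members under the higher filter.

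Direction turned for HSP81-1 in its further probe set (-0.23), for HSP81-3 in further probe sets (0.0093 and 0.087) and with scaling to the hybridization controls (0.0071), and for HSP18.0 in further probe sets (-0.28 and -0.43) and in their mean (-0.069). The same scaling turned HSP16.9A (0.10), DJC43 (0.50), DJB6 (0.50) and DJC79 (0.44). The median of all tested probe sets stood at 0.43 there, above HSP81-3 and HSP16.9A and near DJC43, DJB6 and DJC79. As deposited, DJC43, DJB6 and DJC79 lay at -0.004, -0.005 and -0.06. Replicate numbers do not pair the arrays: deviations of same-numbered arrays correlated at -0.03, 0.02 and -0.05. With the replicate block 4 members were higher and 5 lower, and HSP16.9A (adjusted p = 0.0617) and CLPB2 (0.0661) lost their calls. Signals near the offset limit what can be said of dim members.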
